A study of Bos taurus with 12 samples.

Results

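The heat shock proteins, their J-domain partners (the DNAJ proteins) and the subunits of the chaperonin CCT were followed in the wall of the cow's rumen during a change from forage to grain. The genes were taken by symbol, as those beginning with HSPA to HSPH, HSP90, DNAJA, DNAJB or DNAJC and a number, or CCT2 to CCT8, in the array's annotation. They came to 54 of the 9155 genes that the array named, measured by 81 of 24016 probe sets. For the 17 genes with several probe sets the one with the largest SD over the 12 arrays was used, and the same choice was made for every other gene. The 54 comprised 9 genes of the HSP70 and HSP110 family, 3 of HSP90, 5 small heat shock proteins, 3 DNAJA, 7 DNAJB and 16 DNAJC genes, 6 CCT subunits, the mitochondrial chaperonin pair HSPD1 and HSPE1, and 3 genes that share the letters only. These last 3 were HSPBP1 and HSPBAP1, whose products bind heat shock proteins, and HSPG2, which encodes perlecan, a proteoglycan of basement membranes.

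Chaperones bind proteins that are not yet folded or have come unfolded and let them fold without clumping. HSP70 does this by cycles of ATP hydrolysis that J-domain proteins start and HSP110 proteins reset, HSP90 takes over late folding steps of kinases and steroid receptors, and the ring-shaped CCT encloses actin and tubulin. Mitochondria and the endoplasmic reticulum keep chaperones of their own, and those of the endoplasmic reticulum are raised by the unfolded protein response, while many cytosolic ones are raised by heat shock factor during stress.

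Papillae, the projections through which the rumen absorbs fermentation acids, were taken from the ventral sac of the rumen of 4 Holstein cows. Papillae of the same animals came from week 1 and week 3 of a grain challenge and, as the control, from week 0 on a high forage diet. There were 4 arrays a week and 12 in all. The samples held no animal that stayed on forage, so that diet and calendar week cannot be told apart. Values are log2 values for which 0 is the median of a gene's probe set over the 12 arrays, so that they hold differences between arrays and no absolute level. Levels therefore cannot be compared between genes, and whether the markers of the tissue were present could not be checked. Diets and weeks were compared with limma in 1 model of all 12 arrays without a term for the cow, and with the cow as a block beside it. Unless another fit is named, the SE and p-values are from the fit without the cow, which does not use the pairing of arrays by cow. A gene was called at an adjusted p under 0.05 (Benjamini-Hochberg, over all 24016 probe sets). The hybridization controls, RNAs added in fixed amounts, averaged 0.48 to 0.72 (log2) on 3 arrays, those of cow 1 at weeks 0 and 1 and of cow 2 at week 0, against -0.32 to 0.05 on the others. Results that rest on these arrays were also computed without them. This left cows 3 and 4 at week 0 and cows 2, 3 and 4 at week 1. Without a term for the cow, such a fit compares partly different cows.

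No heat shock, DNAJ or CCT gene was called in any comparison. The differences between weekly means were all below 0.49 on the log2 scale in size but for that of DNAJC9 at week 1, which reached 0.49. At week 3 of grain, set against week 1, the means of all 6 measured CCT subunits (median log2 difference -0.18) and of all 5 measured mitochondrial chaperones (-0.20) were lower. Those of all 6 measured chaperones of the endoplasmic reticulum (0.19) were higher. None of these differences passed the test.

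Over the 12 arrays the log2 value of a gene spanned 0.568 in the median of the 54 genes, beside 0.559 in the median of all 9155. In 9 of the 54 genes (16.7%, beside 17.7% of all genes) the range was under 0.2, and these hardly moved: DNAJB2, DNAJB5, DNAJB6, DNAJB11, DNAJC6, DNAJC12, DNAJC27, HSPB2 and HSPB3. In another 9 (16.7%, beside 19.6% of all genes) the range was 1 or more, namely HSPA1A, HSPA2, HSPH1, HSPB6, HSPB8, DNAJA1, DNAJB1, DNAJC9 and DNAJC18. Of the variation of a gene, 28.1% lay between the cows, 18.5% between the weeks and 46.4% in neither, in the median of the 54 genes. Over all genes these medians were 28.6%, 13.4% and 51.4%. The cows took a larger share than the weeks in 36 of the 54 genes, and in 6900 of all 9155. These shares were not adjusted for the number of cows and of weeks. As there were more cows than weeks, the cows would take the larger share on average even without an effect of either. The medians and counts therefore do not show that the cows outweighed the weeks.

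**Figure D1:**
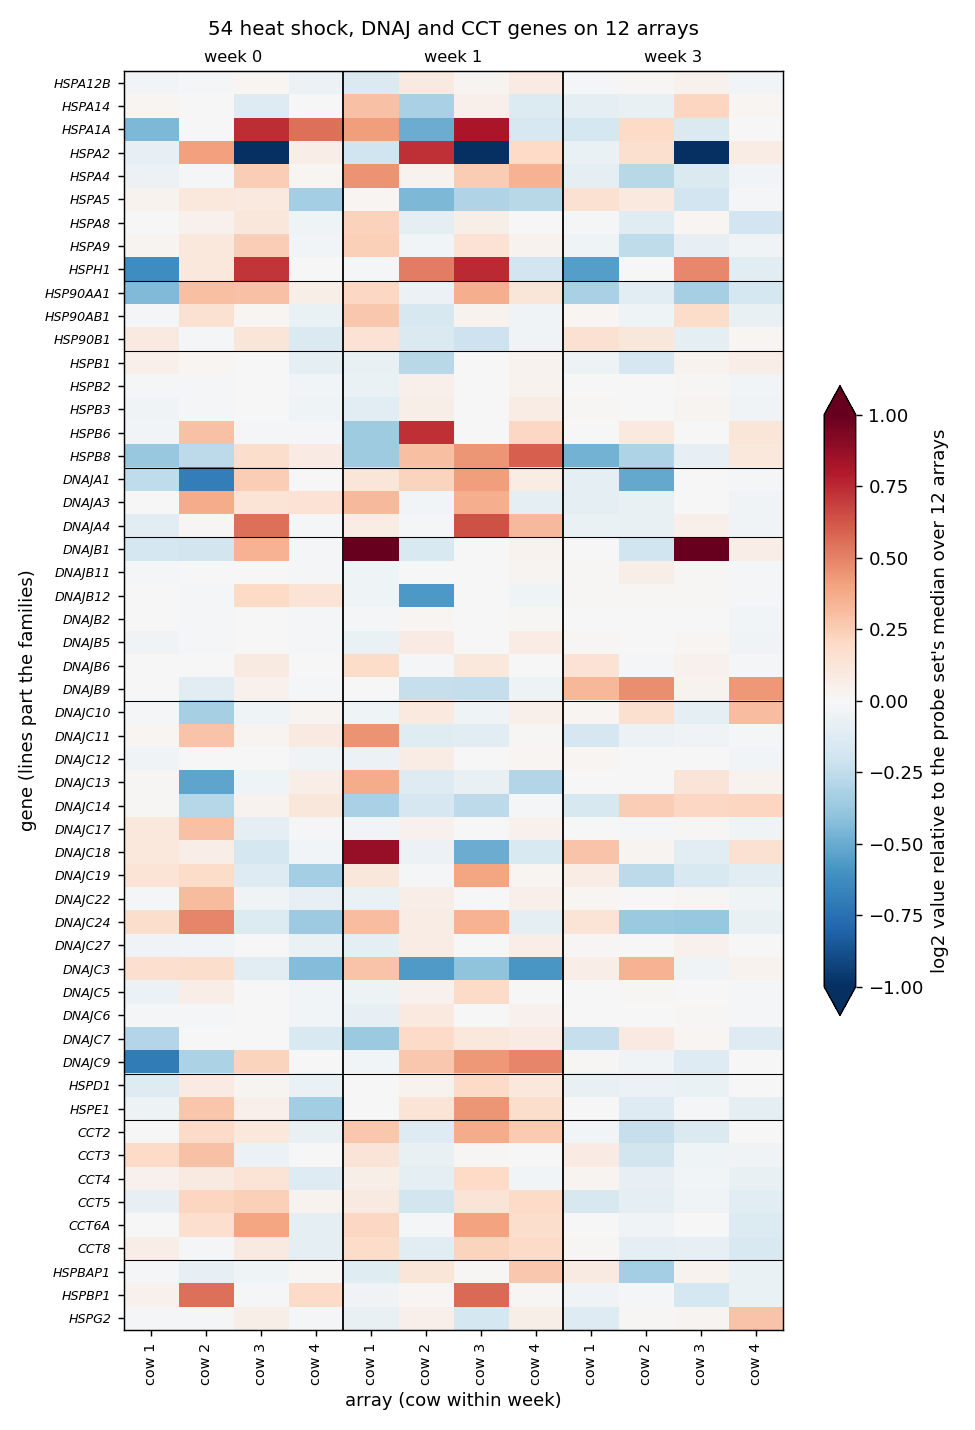
Log2 values of the 54 genes (down the page, by family) on the 12 arrays (across, cows 1 to 4 within weeks 0, 1 and 3), with 0 as the median of each gene; colours stop at -1 and 1. HSPA2 is low in cow 3 at every week (-1.93, -1.84 and -1.71), and DNAJB1 is high on the week 1 array of cow 1 (1.61) and the week 3 array of cow 3 (1.23).

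The gene with the widest spread was HSPA2, an HSP70 known mainly from the testis. In cow 3 it stood at -1.93, -1.84 and -1.71 (log2) at weeks 0, 1 and 3. In cow 1 it stood at -0.08, -0.20 and -0.07, in cow 2 at 0.41, 0.73 and 0.16, and in cow 4 at 0.07, 0.20 and 0.07. Cow 3 was thus low at every week and overlapped with no other cow, and 97.8% of the variation of HSPA2 lay between cows and 0.312% between weeks. HSPH1, the HSP110 that exchanges nucleotide on HSP70, also followed the cow, with 80.8% of its variation between them. Its log2 values were -0.62, -0.02 and -0.55 in cow 1 and 0.71, 0.75 and 0.48 in cow 3, at weeks 0, 1 and 3, so that the 2 cows did not overlap. All 4 probe sets of HSPH1 had their highest value of each week in cow 3. DNAJC7, a cochaperone that links HSP70 with HSP90, had 80.3% of its variation between cows.

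The stress-inducible pair of the cytosol, HSPA1A and its J-domain partner DNAJB1, varied widely, without a pattern by week in the probe sets used. DNAJB1 stood at 1.61 (log2) on the week 1 array of cow 1 and at 1.23 on the week 3 array of cow 3, and between -0.20 and 0.35 on the others. A second probe set of DNAJB1 stood at -0.25 and 0.18 on those 2 arrays, so that the high values were seen by 1 of its 2 probe sets. HSPA1A stood at -0.45, 0.0015, 0.74 and 0.55 in cows 1 to 4 at week 0, at 0.42, -0.49, 0.82 and -0.16 at week 1, and at -0.17, 0.19, -0.14 and -0.0015 at week 3. The weeks overlapped, and the arrays of week 3 lay closest together. Of the 6 probe sets that the annotation gives to HSPA1A, 2 carry a gene ID that was not found in the gene table, and probes for this gene may also bind its near-identical copies, so its values are uncertain. At week 1, against week 0, the other 5 all had a higher mean, while the one used had a lower mean. The mean of the 6 probe sets differed by 0.16 (log2) in that comparison.

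**Figure D2:**
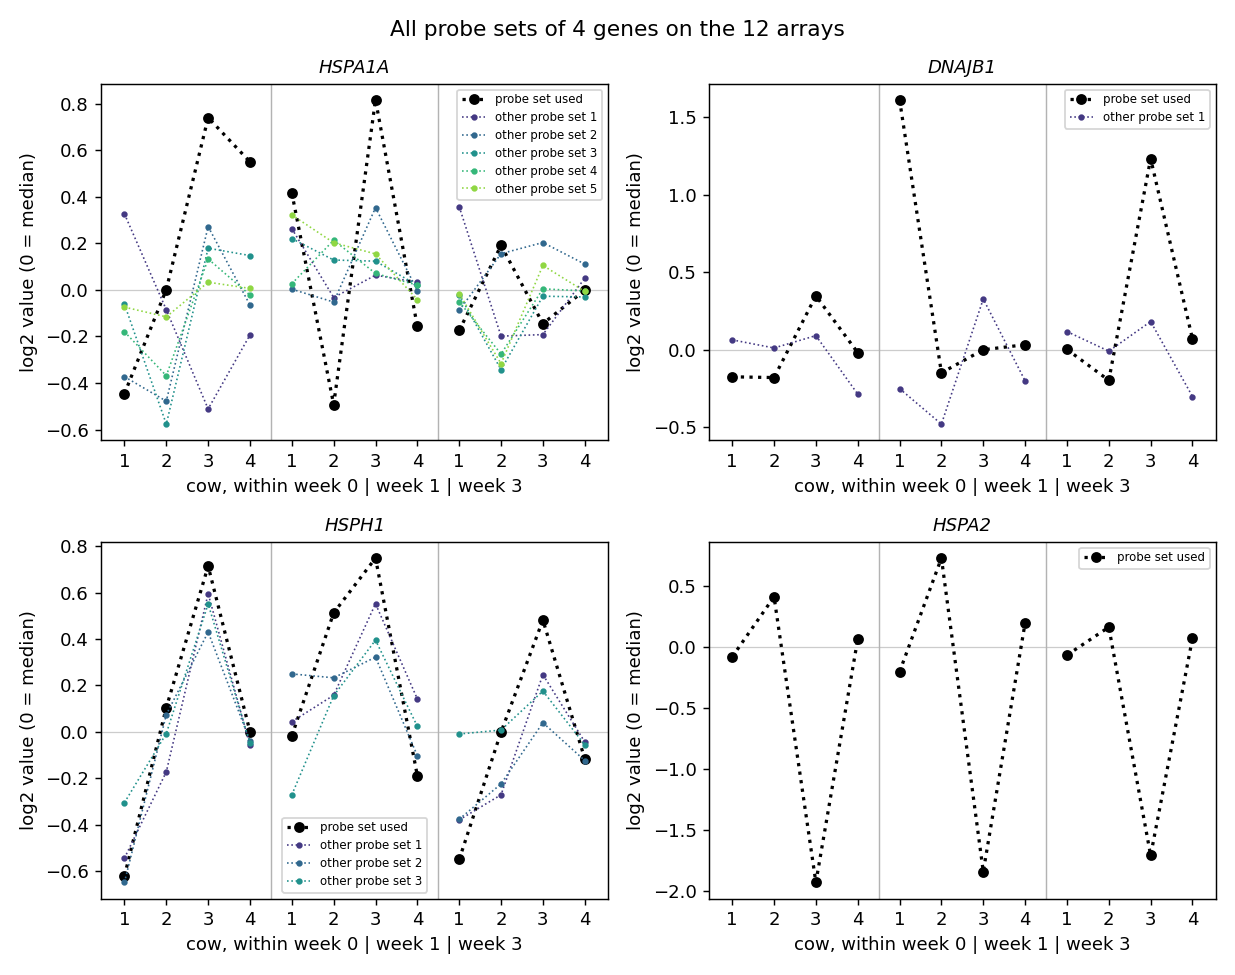
Log2 values (0 = median) of every probe set of HSPA1A, DNAJB1, HSPH1 and HSPA2 on the 12 arrays, cows 1 to 4 within weeks 0, 1 and 3; black points are the probe set used. The 4 probe sets of HSPH1 move together by cow, the high points of DNAJB1 at 1.61 and 1.23 are absent from its other probe set, and HSPA2 has a single probe set with cow 3 below -1.7 at every week.

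At week 3 against week 1, 41 of the 54 genes had a mean below that of week 1, where 59.2% of all genes did. The median log2 difference was -0.07 for the 54 genes and -0.0078 for all 9155. Centring each array on its median gave 37 lower of 54, beside 46.4% of all genes, and quantile normalization 38, beside 51.7%. The lowest was HSPB8 at -0.44 and the highest DNAJB9 at 0.44. None of the 54 was called in limma (0% of all probe sets were), and 8 had an unadjusted p under 0.05, 6 of them lower and 2 higher, beside 6.84% of all genes. With the cow as a block none was called either (0% of all probe sets), and 14 had an unadjusted p under 0.05, beside 10.6% of all genes. Those under 0.05 only with the block were CCT6A, DNAJA1, DNAJA4, DNAJC3, HSPB8 and HSPH1. In all 4 cows 12 of the 54 were lower (5.68% of all genes) and 6 were higher (7.35%). The weeks did not overlap for 5 lower genes (1.69% of all genes) and for 1 higher gene (1.55%).

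In the cytosol the clearest values were those of HSPA4, an HSP110 protein that resets HSP70. Its log2 values were -0.06, -0.02, 0.25 and 0.02 in cows 1 to 4 at week 0, 0.45, 0.03, 0.26 and 0.35 at week 1, and -0.09, -0.28, -0.15 and -0.03 at week 3. Every array of week 3 lay below every array of week 1, and cow 2 was the lowest at weeks 1 and 3. The log2 difference of week 3 from week 1 was -0.41 ± 0.10 (SE), or 1.33-fold lower, with an adjusted p of 0.575 (unadjusted 0.00168). A second probe set of HSPA4 gave -0.16 ± 0.11 in the same comparison and was lower in 3 of 4 cows. HSP90AA1, the inducible cytosolic HSP90, stood at -0.32, -0.10, -0.33 and -0.18 in cows 1 to 4 at week 3, against 0.21, -0.06, 0.37 and 0.12 at week 1. The 2 weeks did not overlap, and the gap was narrow in cow 2. Its difference was -0.39 ± 0.15 (adjusted p = 0.949), and -0.07 ± 0.10 in its other probe set.

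The constitutive cytosolic chaperones differed less. HSPA8, the HSP70 that all cells make, averaged -0.08 ± 0.10 at week 3 and 0.05 ± 0.13 at week 1 (log2, SD, n = 4 each), and was lower in all 4 cows. HSP90AB1, the constitutive HSP90, averaged 0.02 ± 0.12 at week 3 and 0.03 ± 0.18 at week 1, with a difference of -0.0057 ± 0.09. DNAJA1, a J-domain partner of HSPA8, stood at -0.09, -0.51, -0.0056 and -0.012 in cows 1 to 4 at week 3, against 0.12, 0.22, 0.42 and 0.07 at week 1. The weeks did not overlap, with cow 2 the lowest by far at week 3, and the difference was -0.36 ± 0.19 (adjusted p = 0.999, unadjusted 0.0819, or 0.0278 with the cow as a block). HSPH1 differed by -0.31 ± 0.31 and HSPA1A by -0.18 ± 0.31. By cow HSPH1 differed by -0.53, -0.51, -0.27 and 0.07 in cows 1 to 4. With the cow as a block in limma it had an unadjusted p under 0.05 and was not called.

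**Figure D3:**
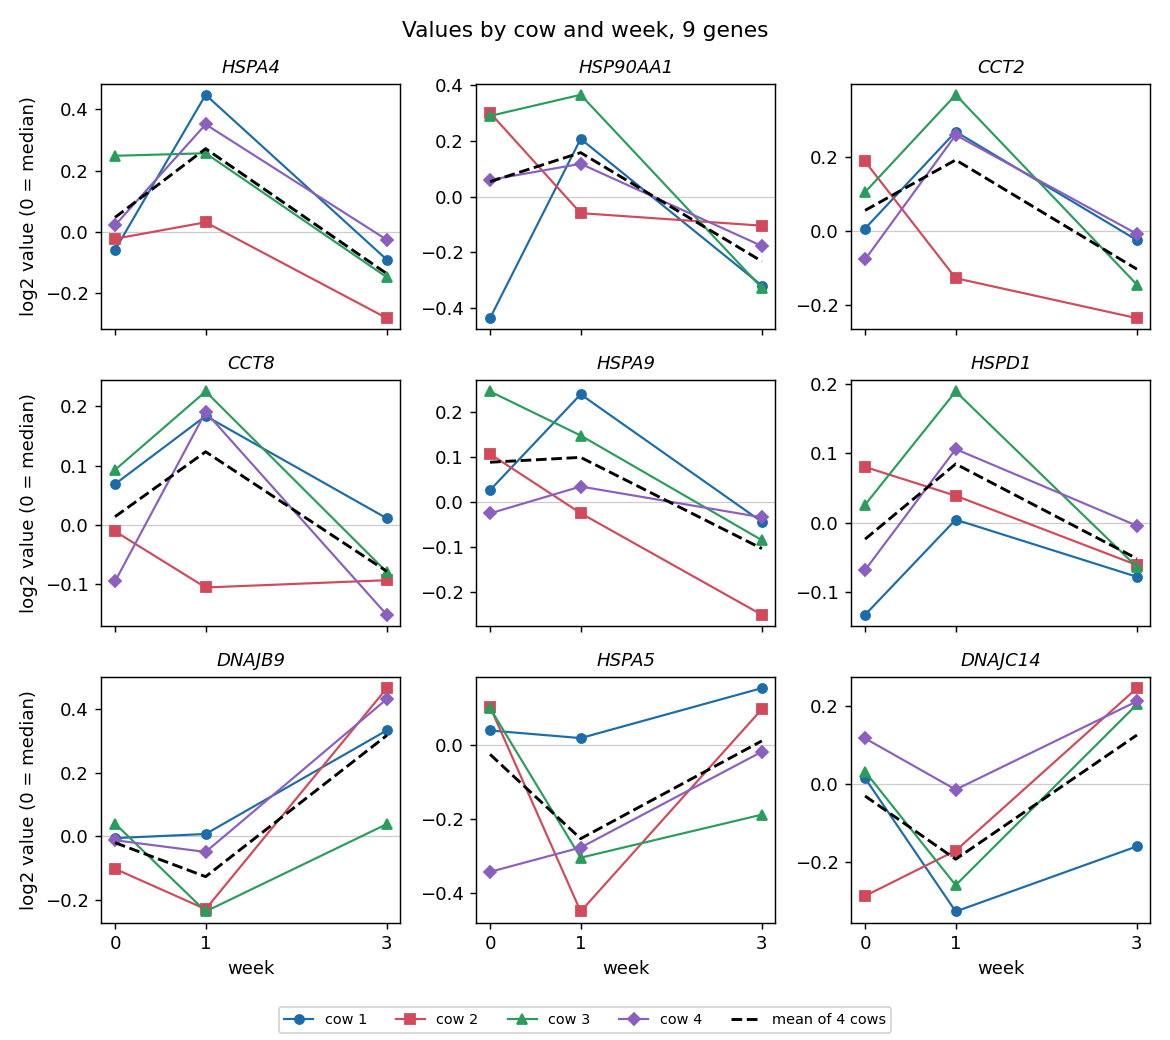
Log2 values (0 = median) of 9 genes by week (0, 1 and 3), 1 line per cow and a dashed line for the mean of 4 cows. HSPA4 and HSP90AA1 stand lower at week 3 than at week 1 in each cow, by -0.41 and -0.39 on average, and DNAJB9 stands higher in every cow, by 0.44.

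CCT is built of 8 kinds of subunit, of which the 6 measured here were CCT2, CCT3, CCT4, CCT5, CCT6A and CCT8. At week 3 all 6 had a lower mean than at week 1, with log2 differences from -0.29 to -0.06 and a median of -0.18. CCT2 stood at -0.02, -0.23, -0.14 and -0.0072 in cows 1 to 4 at week 3, against 0.27, -0.13, 0.37 and 0.26 at week 1. It was lower in each cow, and the weeks overlapped through cow 2, which was low at week 1 too. The difference of CCT2 was -0.29 ± 0.10 (adjusted p = 0.865, unadjusted 0.0172). CCT8 stood at 0.01, -0.09, -0.08 and -0.15 at week 3, against 0.18, -0.11, 0.23 and 0.19 at week 1, and again cow 2 alone was low at week 1. Its difference was -0.20 ± 0.07 (adjusted p = 0.891). CCT6A, CCT5, CCT4 and CCT3 differed by -0.23 ± 0.11, -0.16 ± 0.09, -0.08 ± 0.07 and -0.06 ± 0.08. By cow, 6, 3, 6 and 6 of the 6 subunits were lower in cows 1 to 4, where 38.9%, 62.6%, 36.6% and 57.9% of all genes were.

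Of the mitochondrial chaperones the list held 6 and 5 were measured, and at week 3 all 5 lay below their week 1 mean, with a median log2 difference of -0.20. HSPA9, the mitochondrial HSP70 that draws proteins in through the inner membrane, stood at -0.04, -0.25, -0.09 and -0.03 at week 3, against 0.24, -0.03, 0.15 and 0.03 at week 1. The weeks did not overlap, by a small margin in which cow 2 at week 1 lay just above cow 4 at week 3. The difference was -0.20 ± 0.08 (adjusted p = 0.910), and a second probe set of HSPA9 gave -0.0078 ± 0.09. HSPD1, the barrel of the mitochondrial chaperonin, averaged -0.05 ± 0.03 at week 3 and 0.08 ± 0.08 at week 1 (SD, n = 4 each) and differed by -0.14 ± 0.05 (adjusted p = 0.938). Its weeks did not overlap and it was lower in all 4 cows. HSPE1, the lid of the same chaperonin, differed by -0.25 ± 0.12, DNAJC19, of the import motor, by -0.24 ± 0.13, and DNAJA3, a J-domain partner of HSPA9, by -0.19 ± 0.11, with adjusted p-values of 0.999. By cow, 4, 5, 5 and 4 of the 5 genes were lower, where 38.9%, 62.6%, 36.6% and 57.9% of all genes were.

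In the endoplasmic reticulum all 6 chaperones measured of 8 listed stood above their week 1 mean at week 3. The median log2 difference was 0.19, where 40.8% of all genes were higher. DNAJB9, a J-domain partner of the reticulum's HSP70 and a target of the unfolded protein response, stood at 0.33, 0.47, 0.04 and 0.43 in cows 1 to 4 at week 3, against 0.01, -0.23, -0.24 and -0.05 at week 1. Every array of week 3 lay above every array of week 1, with cow 3 the lowest in each. The difference of 0.44 ± 0.09 (1.36-fold) had the smallest p of the 54 genes, with an adjusted p of 0.548 (unadjusted 0.000654), and 0.242 adjusted with the cow as a block. HSPA5, the HSP70 of the reticulum also called BiP, stood at 0.15, 0.10, -0.19 and -0.02 at week 3, against 0.02, -0.45, -0.30 and -0.28 at week 1. It was higher in each cow while the weeks overlapped, cow 1 at week 1 lying above cows 3 and 4 at week 3. Its 3 probe sets differed by 0.26 ± 0.13, 0.15 ± 0.09 and 0.0063 ± 0.06.

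DNAJC3, which restrains the stress kinase EIF2AK3, stood at 0.07, 0.35, -0.03 and 0.03 at week 3, against 0.28, -0.57, -0.40 and -0.58 at week 1. It was lower at week 3 in cow 1 and higher in the other cows, and differed by 0.42 ± 0.20 (adjusted p = 0.999, unadjusted 0.0612). HSP90B1, the HSP90 of the reticulum, differed by 0.11 ± 0.09 and was higher in all 4 cows. DNAJC10, a disulfide reductase, differed by 0.08 ± 0.10, and DNAJB11, which hardly varied on any array, by 0.019 ± 0.03. By cow, 5, 6, 5 and 5 of the 6 genes were higher, where 38.9%, 62.6%, 36.6% and 57.9% of all genes were lower. DNAJC14, a J-domain protein of the reticulum's membrane that the list did not hold, stood at -0.16, 0.25, 0.20 and 0.21 at week 3, against -0.33, -0.17, -0.26 and -0.01 at week 1. It was higher in each cow and the weeks overlapped through cow 1, and it differed by 0.32 ± 0.11 (adjusted p = 0.865), with 0.13 ± 0.12 in its other probe set.

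**Figure D4:**
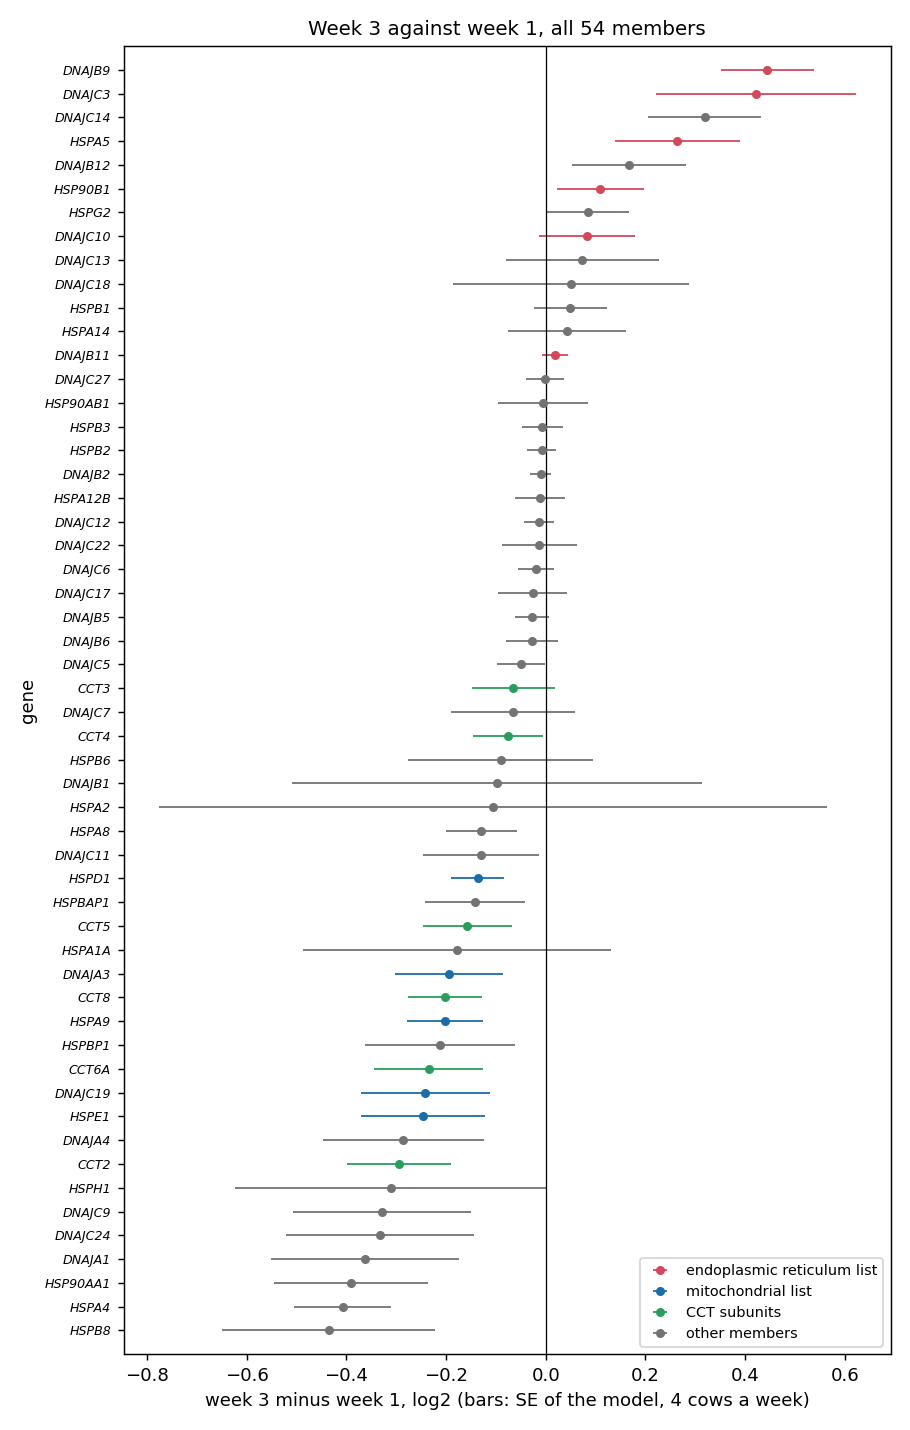
Log2 difference of week 3 from week 1 for the 54 genes, ordered by size, with the standard error of the limma model of 12 arrays (4 cows a week); colours mark the lists of the endoplasmic reticulum, the mitochondria and CCT. All 6 genes of the endoplasmic reticulum lie right of 0, between 0.019 and 0.44, and all 6 CCT subunits and all 5 mitochondrial genes lie left of it, between -0.29 and -0.06.

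Among the small heat shock proteins HSPB8, which works with BAG3 in clearing damaged protein, had the lowest difference of the 54 genes at week 3 against week 1. It stood at -0.47, -0.31, -0.08 and 0.11 in cows 1 to 4 at week 3, against -0.36, 0.30, 0.44 and 0.60 at week 1. It was lower in each cow while the weeks overlapped, because cow 1 was low at both. The log2 difference was -0.44 ± 0.21 (unadjusted p = 0.067), and with the cow as a block -0.44 ± 0.09 (unadjusted p = 0.00188, adjusted 0.265). HSPB1, the main small heat shock protein of epithelia, averaged -0.03 ± 0.10 at week 3 and -0.08 ± 0.14 at week 1, and was higher in all 4 cows by 0.02 to 0.11.

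These directions of the 3 lists were met in each of the 24 other settings that were tried. These included left-out arrays, left-out cows and the fit without the 3 arrays of high hybridization controls. Some of the settings could not have changed the directions. The block and the fits without a single week 0 array leave every difference of week 3 from week 1 as it was. The filter on SD only drops genes, and averaging probe sets cannot move a CCT subunit, as each has a single probe set. The count of lower genes went up to 41 of the 54 over those settings. It was lowest, at 31, with the 40% of probe sets of lowest SD left out, where 43 of the 54 genes remained. With all 54 genes kept, at most 21 were higher. The number of the 54 at an unadjusted p under 0.05 is given with the share of all probe sets in brackets. It was 13 once the 3 arrays of high hybridization controls were left out (12.4%) and 13 without the week 1 array of cow 1 alone (17.9%). It was 5 without the week 3 array of cow 2 (3.42%), 3 without the week 1 array of cow 3 (4.06%), 2 without cow 3 (3.21%) and 5 without cow 4 (4.49%).

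No marker of the other cells of the papilla was called in limma in this comparison, and the fibroblast and matrix markers leaned one way. The week 3 mean was the higher one for all 11 fibroblast and matrix markers, where it was for 40.8% of all genes. Their median log2 difference was 0.29, and their mean per array lay between 0.14 and 0.34 at week 3 and between -0.38 and 0.32 at week 1. Of 10 leukocyte markers 5 were higher and 5 lower (median 0.17), with array means of -0.18 to 0.49 at week 3 and -0.27 to 0.13 at week 1. Of 10 markers of squamous epithelium 5 were higher (median 0.01), with array means of -0.21 to -0.07 at week 3 and -0.19 to 0.13 at week 1. Of 8 markers of vessels and smooth muscle 2 were higher (median -0.03), with array means of -0.12 to 0.12 at week 3 and -0.11 to 0.19 at week 1. The part of these markers in the differences of the chaperones was not tested. In whole papillae fewer cells of a type and less RNA per cell cannot be told apart, and centred values do not show whether a marker was absent.

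At week 3 of grain against week 0 on forage all 6 CCT subunits and all 5 mitochondrial chaperones had a lower mean, and all 6 chaperones of the endoplasmic reticulum a higher one, with the values given here. The comparison shares its week 3 arrays with the one above. Of the 54 genes 28 had a lower mean at week 3, where 35.5% of all genes did, with a median log2 difference of -0.0025 beside 0.02 for all genes. With each array centred on its median 34 were lower (48.1% of all genes), and with quantile normalization 39 (52.6%). Once the 3 arrays of high hybridization controls were left out 23 were lower (32.7%), with a median of 0.01. None was called in limma, without or with the cow as a block (0% and 0% of all probe sets). At an unadjusted p under 0.05 there were 3 of the 54 (5.02% of all genes), and 2 with the cow as a block (8.02%). In all 4 cows 8 were lower (6.34% of all genes) and 5 higher (28.1%), and these 5, DNAJC6, DNAJC7, DNAJC27, HSPA12B and HSPB3, differed by only 0.01 to 0.05. The weeks did not overlap for HSPA9 and DNAJC11, both lower (1.10% of all genes), and for none of the 54 in the higher direction (2.95% of all genes).

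DNAJB9 had the smallest p here too. It stood at 0.33, 0.47, 0.04 and 0.43 in cows 1 to 4 at week 3, against -0.0065, -0.10, 0.04 and -0.01 at week 0. Cow 3 was level in the 2 weeks and the other cows were higher, and the log2 difference was 0.34 ± 0.09, or 1.26-fold (adjusted p = 0.901, unadjusted 0.00424). The other genes of the endoplasmic reticulum were also higher, HSPA5 by 0.04 ± 0.13, HSP90B1 by 0.04 ± 0.09, DNAJC3 by 0.15 ± 0.20, DNAJC10 by 0.19 ± 0.10 and DNAJB11 by 0.02 ± 0.03, with a median of 0.10 for the 6. By cow 5, 5, 2 and 5 of the 6 were higher, where 31.5%, 35.1%, 33.6% and 39.6% of all genes were lower. Most of all genes were thus higher in each cow, and cow 3 went the other way in most of the 6.

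The CCT subunits differed by a median of -0.16 on the log2 scale between week 3 and week 0. CCT5 stood at -0.16, -0.10, -0.04 and -0.11 at week 3, against -0.08, 0.21, 0.24 and 0.04 at week 0. It was lower in each cow, the weeks overlapped through cow 1, and the difference was -0.20 ± 0.09 (adjusted p = 0.901, unadjusted 0.044). CCT2, CCT3, CCT4, CCT6A and CCT8 differed by -0.16 ± 0.10, -0.15 ± 0.08, -0.07 ± 0.07, -0.16 ± 0.11 and -0.09 ± 0.07. The 5 mitochondrial chaperones differed by a median of -0.08. By cow 3, 5, 5 and 2 of the 5 were lower, where 31.5%, 35.1%, 33.6% and 39.6% of all genes were. The medians of the 5 were -0.07, -0.40, -0.09 and 0.06 in cows 1 to 4. Without the week 0 array of cow 2 their median was -0.0044 and 3 of 5 were lower, without cow 2 it was 0.0096 and 2 were lower, and with the 3 arrays of high controls left out it was -0.03 and 3 were lower. HSPA9 averaged -0.10 ± 0.10 at week 3 and 0.09 ± 0.12 at week 0 (SD, n = 4 each), a difference of -0.19 ± 0.08 (adjusted p = 0.901, unadjusted 0.0303). Its second probe set went the other way, by 0.05 ± 0.09.

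DNAJA3 differed by -0.21 ± 0.11, HSPD1 by -0.03 ± 0.05 and HSPE1 by -0.04 ± 0.12. In the cytosol HSP90AA1 differed by -0.29 ± 0.15 and was lower in 3 of 4 cows, with 0.02 ± 0.10 in its other probe set. HSPA8 differed by -0.10 ± 0.07 and HSPA4 by -0.18 ± 0.10, both lower in all 4 cows. HSPA1A differed by -0.24 ± 0.31, HSPH1 by -0.10 ± 0.31, HSP90AB1 by 0.00024 ± 0.09, DNAJA1 by 0.02 ± 0.19, DNAJB1 by 0.28 ± 0.41 and HSPB1 by -0.02 ± 0.07. The mean of all probe sets of HSPA1A differed by 0.019. Without the 3 arrays HSPA1A differed by -0.68, DNAJB1 by 0.11 and DNAJC3 by 0.37. DNAJC11, a protein of the mitochondrial membranes named because its weeks did not overlap, differed by -0.17 ± 0.12.

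The number of the 54 genes at an unadjusted p under 0.05 was 5 without the week 0 array of cow 1 (4.09% of all probe sets) or the week 1 array of cow 2 (3.87%). It was 1 without the week 0 or the week 3 array of cow 2 (3.2% and 3.13%), 6 without cow 1 (3.75%) and 1 without cow 2 (2.47%). All 6 CCT subunits were lower in each of the 24 other settings, all 5 mitochondrial genes in 20 of them, and all measured genes of the endoplasmic reticulum were higher in 21. The block, the fits without a single week 1 array and, for CCT, the averaging of probe sets could not change a difference here. The filter on SD could only drop genes. In the same comparison 10 of 11 fibroblast and matrix markers were higher (median 0.53), where 64.5% of all genes were. Of 10 epithelial markers 8 were lower (median -0.09), where 35.5% of all genes were. Array means of the fibroblast and matrix markers were -0.43 to 0.02 at week 0 and 0.14 to 0.34 at week 3. Those of the epithelial markers were 0.06 to 0.29 at week 0 and -0.21 to -0.07 at week 3. Neither list overlapped between these weeks, while the leukocyte list and the list of vessels and smooth muscle did. The part of these markers in the differences of the chaperones was not tested.

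At week 1 of grain against week 0 the genes were spread around 0. Of the 54 genes 17 had a lower mean at week 1, where 36.7% of all genes did, with a median log2 difference of 0.03 beside 0.02 for all genes. With each array centred on its median 24 were lower (52.4% of all genes), and with quantile normalization 27 (53.1%). The median of the 54 was 0.0053 with that centring and -0.0010 with quantile normalization, 0.05 without the week 1 array of cow 2, and 0.07 without cow 2. None was called in limma (0% of all probe sets), and 2 had an unadjusted p under 0.05 (6.61% of all genes). With the cow as a block none was called (0.00833% of all probe sets), and 5 had an unadjusted p under 0.05 (10.2% of all genes). In all 4 cows 4 were higher (7.48% of all genes) and 1, DNAJB12, was lower (5.29%). The weeks overlapped for all 54, where 2.21% of all genes did not overlap and were higher and 0.907% did not overlap and were lower.

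DNAJC9, a J-domain protein of the nucleus that handles histones, had the largest difference. It stood at -0.03, 0.27, 0.43 and 0.49 in cows 1 to 4 at week 1, against -0.70, -0.31, 0.22 and -0.0044 at week 0. It was higher in each cow, and the weeks overlapped because cow 1 was low in both. The log2 difference was 0.49 ± 0.18, or 1.40-fold (adjusted p = 0.763, unadjusted 0.020). Without the week 0 array of cow 1 the difference of DNAJC9 was 0.32, and with the 3 arrays of high controls left out it was 0.29. HSPA4 differed by 0.22 ± 0.10 (adjusted p = 0.763, unadjusted 0.0426) and was higher in all 4 cows, by only 0.0082 in cow 3, while its second probe set gave -0.02 ± 0.11. With the 3 arrays left out HSPA4 differed by 0.08. DNAJA1 stood at 0.12, 0.22, 0.42 and 0.07 at week 1, against -0.25, -0.69, 0.25 and 0.0056 at week 0, with a difference of 0.38 ± 0.19. The value of cow 2 at week 0 was far below the others, and the difference of DNAJA1 was 0.21 without that array and 0.11 with the 3 arrays of high controls left out. HSPB8 differed by 0.34 ± 0.21, with an unadjusted p of 0.136, or 0.00687 with the cow as a block, and was higher in all 4 cows.

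Of the lists, 4 of 6 CCT subunits and 4 of 5 mitochondrial chaperones had a higher mean at week 1 (63.3% of all genes), with medians of 0.04 and 0.11 on the log2 scale. The counts were 3 of 6 and 3 of 5 with each array centred on its median (47.6%) or with quantile normalization (46.9%), where the median of CCT was 0.01 and -0.01. In cow 2 all 6 and all 5 of them were lower (37.8% of all genes). In cows 1, 3 and 4 5, 5 and 5 of the 6 and 4, 4 and 4 of the 5 were higher, where 57.6%, 36.9% and 38.4% of all genes were lower. CCT2 and CCT8 differed by 0.14 ± 0.10 and 0.11 ± 0.07, CCT6A, CCT4, CCT5 and CCT3 by 0.08 ± 0.11, 0.0014 ± 0.07, -0.05 ± 0.09 and -0.09 ± 0.08. HSPE1, HSPD1 and HSPA9 differed by 0.21 ± 0.12, 0.11 ± 0.05 and 0.01 ± 0.08. Of the endoplasmic reticulum 4 of 6 genes had a lower mean (36.7% of all genes), with a median of -0.09. HSPA5 differed by -0.23 ± 0.13 and was lower in 3 of 4 cows, while its other probe sets gave -0.09 ± 0.09 and 0.02 ± 0.06. Of the others DNAJC3 differed by -0.27 ± 0.20 and HSP90B1 by -0.07 ± 0.09.

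In the cytosol HSP90AA1, HSP90AB1, HSPA8, HSPH1 and HSPA1A differed by 0.10 ± 0.15, 0.0060 ± 0.09, 0.02 ± 0.07, 0.21 ± 0.31 and -0.07 ± 0.31. The mean of all probe sets of HSPA1A went the other way, by 0.16. With the 3 arrays of high hybridization controls left out the values of the same 5 genes were -0.03, -0.03, -0.04, -0.00025 and -0.59, so that the first 4 changed sign. With the block added to that fit HSP90AA1, HSPA8 and HSPH1 changed sign too, and HSP90AB1 did not. Leaving out the week 0 array of cow 1 alone gave -0.06 for HSP90AA1, -0.0077 for HSP90AB1 and -0.0095 for HSPH1. DNAJB1 differed by 0.38 ± 0.41, and by -0.20 once the 3 arrays of high hybridization controls, the high array of cow 1 at week 1 among them, were left out. HSPB1 differed by -0.07 ± 0.07, and DNAJB12, of the reticulum's membrane and named because it was lower in all 4 cows, by -0.24 ± 0.11.

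The week 1 comparison was the one that the choice of arrays moved most. With those 3 arrays left out 8 of the 54 genes had an unadjusted p under 0.05, as did 17.7% of all probe sets. The count went from 0 without the week 1 array of cow 4 (5.33% of all probe sets) to 14 without the week 1 array of cow 1 (43.1%). It was 1 without the week 0 or the week 3 array of cow 1 (4.11% and 4.57%), the week 1 or the week 3 array of cow 3 (4.56% and 4.76%), or all of cow 4 (4.65%). It was 4 without the week 0 or the week 1 array of cow 2 (4.78% and 4.05%), 7 without cow 1 (20.4%) and 6 without cow 2 (3.49%). When limma estimated a weight for each array, the week 1 array of cow 1 received 0.0618, against 0.42 to 3.63 for the others. With these weights 10 of the 54 were called at week 1 against week 0, as were 41.5% of all probe sets. They included DNAJC9 (0.77 ± 0.20, adjusted p = 0.0172), HSPB8 (0.67 ± 0.19, adjusted p = 0.0191), HSPD1 (0.16 ± 0.05, adjusted p = 0.0346) and DNAJC3 (-0.54 ± 0.17, adjusted p = 0.0279). In this comparison 7 of 11 fibroblast and matrix markers were higher (median 0.36), where 63.3% of all genes were. Of 10 epithelial markers 8 were lower (median -0.24), where 36.7% of all genes were. The part of these markers in the differences was not tested.

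Over the 3 weeks together none of the 54 genes was called by the moderated F test (0% of all probe sets), and 3, DNAJB9, HSPA4 and HSPA9, had an unadjusted p under 0.05 (6.90% of all genes). The adjusted p of DNAJB9 was 0.638 and that of HSPA4 0.736. With the cow as a block none was called (0.00416% of all probe sets) and 8 had an unadjusted p under 0.05 (11.6% of all genes). In the fit without a block the number was 8 without cow 1 (10.3% of all probe sets) and 10 with the 3 arrays of high controls left out (11.2%). Leaving out single arrays gave 2 to 11. The highest was without the week 1 array of cow 1 (25.9%). The lowest was without the week 1 array of cow 3 (4.33%) or the week 3 array of cow 2 (3.8%) or cow 3 (4.12%). The number was 5 without the week 0 array of cow 1, 2 or 3 (4.66%, 4.82% and 5.43%). It was 6 without the week 0 array of cow 4 (4.63%) or the week 1 array of cow 2 (4.33%). With estimated array weights 8 of the 54 were called, as were 25.4% of all probe sets. Of the variation of DNAJB9 71.6% lay between the weeks, and of HSPA4 64.0%. For HSPA9, HSPD1, CCT2 and DNAJC14 this share was 47.7%, 45.3%, 44.5% and 44.0%, beside the median of 13.4% for all genes.

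The genes that work beside the chaperones were read from 2 lists. Of 36 cochaperones, prefoldin subunits and heat shock factors 34 were measured. Set against week 1, week 3 had a lower mean in 29 of the 34 (27 with each array centred on its median), where 59.2% of all genes did, with a median log2 difference of -0.08, and none was called. CRYAB, a small heat shock protein of muscle and lens, differed by -0.54 ± 0.19, and HSF2, a heat shock factor, by -0.36 ± 0.13 (adjusted p = 0.865 for both, unadjusted 0.0182 and 0.0170). HSF2 was lower in all 4 cows, as was PFDN1, a subunit of the prefoldin that hands actin to CCT, by -0.18 ± 0.09. HYOU1, the HSP110 of the endoplasmic reticulum, differed by 0.39 ± 0.14, the highest of the list, and was higher in all 4 cows (adjusted p = 0.896).

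Between week 3 and week 0, 24 of the 34 had a lower mean (median -0.06), where 35.5% of all genes did. HSF1, the main heat shock factor, differed by -0.22 ± 0.09 and was lower in all 4 cows (adjusted p = 0.901, unadjusted 0.0277). STIP1, which joins HSP70 to HSP90, differed by -0.25 ± 0.14, and BAG2, a nucleotide exchange factor, by -0.27 ± 0.14. At week 1 against week 0, 20 of the 34 (58.8%) had a higher mean (median 0.05), where 63.3% of all genes did. HSF2 stood at 0.30 ± 0.13 and PTGES3, the HSP90 cochaperone p23, at 0.10 ± 0.05.

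Of 21 genes of the unfolded protein response and of folding in the endoplasmic reticulum 16 were measured, and none was called. Week 3 had a higher mean than week 1 in 14 of the 16, where 40.8% of all genes did, with a median log2 difference of 0.17. EIF2AK3, the stress kinase PERK, differed by 0.46 ± 0.20 and was higher in all 4 cows (adjusted p = 0.999, unadjusted 0.0436). SEL1L, of the pathway that removes misfolded protein, differed by 0.28 ± 0.15, SDF2L1, a partner of HSPA5, by 0.19 ± 0.09, and PDIA3, a disulfide isomerase, by 0.16 ± 0.09. At week 1 against week 0, 15 of the 16 had a lower mean (median -0.14), where 36.7% of all genes did. The cows were split, with medians of the 16 genes of 0.05, -0.38, -0.27 and 0.09 in cows 1 to 4. ATF4, the transcription factor of the stress response, stood at -0.26 ± 0.11 and PDIA3 at -0.20 ± 0.09. Week 3 had a higher mean than week 0 in 9 of the 16 (64.5% of all genes), or in 8 with each array centred on its median (51.9%). The median was 0.03 as deposited, with EIF2AK3 at 0.37 ± 0.20 and ATF4 at -0.25 ± 0.11. Each week's arrays serve in 2 of the 3 comparisons, so that the comparisons are not independent of each other.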

How the data were processed

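Total RNA of the papillae was labelled with biotin and hybridised to Affymetrix bovine arrays, 1 array per sample. Per the submitters' processing notes the authors used GCRMA, which corrects probe intensities for background and normalizes them, and they deposited the result on a log scale, read here as log2. Neither the version of GCRMA nor the log's base is given in the sources used here. Base 2 was assumed: on a natural log the widest range of any probe set (11.2) would mean a 74399-fold span, more than the 65535 levels a scanner can record. Each probe set has a median of 0 over the 12 arrays, so no filter on level and no absolute level was possible, and the number of arrays limits the precision.

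Of 24016 probe sets other than 112 controls, 13292 named 1 gene, 86 several and 10638 none in the array annotation. Of those naming 1 gene, 13263 had a gene ID in the ARS-UCD2.0 gene table. Of the 81 probe sets of the 54 genes, 8 bear a suffix by which Affymetrix marks probes matching several transcripts. No sequence was read.

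Differences, standard errors and two-sided p-values came from limma 3.58.1 in R 4.3.3 (lmFit and eBayes without trend, 1 mean per week), adjusted by Benjamini-Hochberg over all probe sets. The same 4 cows were sampled each week. Arrays of a cow deviated together from the weekly means (correlation 0.303 to 0.69 within a cow, -0.435 to 0.0662 between cows), so the cow was also fitted as a block. Tested on simulated data for week 3 against week 0 with 24016 probe sets, the step recovered 76% of 100 probe sets changed by 1 and 94% of 100 changed by 2 on the log2 scale, with 12 false calls among 182. The simulated noise was independent and of equal spread on all arrays, without a deviation shared by a cow's arrays. The changed probe sets were drawn from outside the 40% of lowest SD. Recovery on the real arrays may therefore differ. The genes and lists were chosen with earlier results of these data known, so no p was adjusted over a list. Named in each comparison were up to 8 genes a direction with an unadjusted p under 0.05, a fixed set of core chaperones and the 6 genes of largest SD (HSPA2, DNAJB1, HSPH1, HSPA1A, HSPB8 and DNAJC3), with up to 4 genes of each partner list by smallest p. Other genes were named after their values were seen. Counts without HSPG2 differed by at most 1.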

Additional observations from a re-analysis of the deposited data

Results flagged for a closer look

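In 6 of the 78 groups of 4 arrays examined (26 named genes in 3 weeks) 1 array stood apart from the other 3, by a gap above the critical value of Dixon's test for an outlying value. For groups of normal values not chosen by their spread, chance would mark about 1 in 20. Here 6 of the genes were named for a large SD, and probe sets were chosen by SD. That rate may therefore not hold. DNAJB1 at week 1 was 1.61 (log2) in cow 1, against -0.15 to 0.03 in the other cows, on one of the arrays of high hybridization controls. HSPA2 at week 3 was -1.71 in cow 3, against -0.07 to 0.16. CCT8 at week 1 was -0.11 in cow 2, against 0.18 to 0.23. DNAJA1 at week 3 was -0.51 in cow 2, against -0.09 to -0.0056. DNAJC14 at week 3 was -0.16 in cow 1, against 0.20 to 0.25. HSPA5 at week 0 was -0.34 in cow 4, against 0.04 to 0.10.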

How the results depend on the processing

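Tried beside the reported setting were the cow as a block, centring, quantile normalization, the mean of a gene's probe sets, a filter on the 40% of lowest SD, array weights, no arrays of high hybridization controls, and each array or cow left out. The fit without those arrays and with the block, and over the 3 weeks also array weights and left-out arrays, were chosen after seeing the data. Brackets give the share of all probe sets at an unadjusted p under 0.05. Genes of the 54 at that p at week 1 against week 0 (2 as reported, 5.15%) numbered 5 with the cow as a replicate block (7.61%). They numbered 1 with centring (4.32%), quantile normalization (4.44%), the mean of probe sets (6.59% of all genes) or the SD filter (43 genes left, 6.29%). They numbered 14 with array weights (50.1%), 8 without the 3 arrays (17.7%), 7 without them and with the block (9.9%), and 0 to 14 with an array or cow left out (3.49% to 43.1%). At week 3 against week 0 (3, 3.88%) they numbered 6 with quantile normalization (5.75%), 1 with the SD filter (5.39%) and 5 with array weights (15%). They numbered 0 without the 3 arrays and with the block (5.39%), and 1 to 6 with an array or cow left out (2.47% to 4.83%). At week 3 against week 1 (8, 4.88%) they numbered 14 with the block (7.58%), 14 with array weights (34.6%) and 13 without the 3 arrays (12.4%). They numbered 14 without them and with the block (11.8%), and 2 to 13 with an array or cow left out (3.21% to 17.9%). Over the 3 weeks (3, 5.01%) they numbered 8 with the block (8.24%), 7 with quantile normalization (5.45%), 16 with array weights (47.3%) and 10 without the 3 arrays (11.2%). They numbered 11 without them and with the block (10.7%) and 3 to 8 with a cow left out (3.09% to 10.3%). With an array left out they numbered 2 to 11 (3.8% to 25.9%), the 11 being without the week 1 array of cow 1. The block changed no call. Array weights alone gave calls, 10 at week 1 against week 0 and 8 over the 3 weeks, and the others none. The median difference of the genes at week 1 against week 0 (0.03) was 0.0053 with centring, -0.0010 with quantile normalization and 0.018 to 0.066 with an array or cow left out. At week 3 against week 0 (-0.0025) it was -0.042 with quantile normalization, -0.045 with the SD filter and -0.044 to 0.012 with an array or cow left out. At week 3 against week 1 (-0.07) it was -0.13 with the SD filter and -0.068 to -0.032 with an array or cow left out. Of 72 differences of named genes, none called, 13 had the other sign without the 3 arrays and 10 with array weights. With the mean of probe sets HSPA1A (week 1 against week 0, and week 3 against week 0) and DNAJB1 (week 3 against week 1) had the other sign. The causes were not tested. With 4 cows a week 76% of simulated log2 differences of 1 were called at week 3 against week 0, under noise independent between arrays. The differences reported for these genes, up to 0.49 in size, are smaller than any that was simulated. A p that misses the threshold does not show that the weeks were alike.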
